A study of Mus musculus with 14 samples.

Results

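Focal adhesion kinase (FAK, gene Ptk2), its relative PYK2 (gene Ptk2b) and 8 genes whose proteins work with them were followed across 5 lines of mouse ovarian tumor cells. The genes were chosen by symbol, and all 10 were found once each among the 35275 genes of the expression table. The data were RNA sequencing of 14 samples of KMF cells and their derivatives, all grown in suspension as tumorspheres for 5 days. KMF cells are an aggressive ovarian carcinoma line that was evolved in C57Bl6 mice from ID8, a spontaneously transformed mouse ovarian epithelial line.

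Parental KMF cells (n = 3) carry intact Ptk2. FAK KO cells (n = 3) are KT13, a single clone of KMF in which CRISPR/Cas9 left frameshifting insertions or deletions in an early coding exon of Ptk2. The other lines were all made from KT13 and so share its edited Ptk2 alleles. FAK-WT cells (n = 3) re-express FAK fused to green fluorescent protein from a lentiviral vector with a CMV promoter. FAK-R454 cells (n = 2) carry the same fusion in its R454 form, with arginine in place of a lysine of the ATP-binding site, which removes kinase activity. β-catenin ΔGSK cells (n = 3) express a stabilized β-catenin that lacks the sites at which GSK3β marks it for degradation, from a retroviral vector that also encodes green fluorescent protein. The question put to these genes was how FAK loss, FAK re-expression with or without kinase activity, and active β-catenin in place of FAK left the transcripts of the pathway itself.

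FAK and PYK2 are the only members of their family of non-receptor tyrosine kinases. FAK is recruited to integrin adhesions and autophosphorylates tyrosine 397, which then binds the SH2 domain of SRC family kinases such as SRC, YES and FYN. The FAK-SRC pair phosphorylates the CAS scaffolds p130CAS (gene Bcar1) and HEF1 (gene Nedd9), and paxillin (gene Pxn), and these carry the signal to RAC and to cell migration. FIP200 (gene Rb1cc1) binds FAK and PYK2 and inhibits their kinase activity, besides its part in starting autophagy, and GRB7 is an adaptor that docks on phosphorylated FAK.

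The 2 FAK residues on which these lines turn lie in exons 15 and 17 of 32 in a Ptk2 transcript of GENCODE (build GRCm38, minus strand, 1052 coding codons). The stretches below are mouse reference coding sequence, with the codon of the autophosphorylated tyrosine 397 (chr15:73276900-73276902) and the codon of the lysine that the R454 form replaces (chr15:73268864-73268866) in capitals.
Ptk2 tyrosine 397: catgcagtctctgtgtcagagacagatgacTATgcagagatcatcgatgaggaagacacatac
Ptk2 ATP-binding lysine: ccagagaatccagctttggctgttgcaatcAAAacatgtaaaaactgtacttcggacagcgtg
The FAK-R454 construct differs from this reference at the second codon. The deposited values count fragments over the whole gene, so transcripts of the edited alleles and of the introduced FAK cannot be told apart.

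Between 25390558 and 35289859 fragments per library fell on genes, with no pair of identical libraries, and the 20 most abundant genes took 5.88 to 6.83% of them. Of 8 ovarian surface and mesothelial epithelium markers 6 were above 1 FPKM (fragments per kilobase of gene, scaled to library size), and their summed level ran from 1569 to 1809 FPKM in FAK-WT cells and from 1069 to 1399 FPKM in the other lines. Single markers moved apart within that sum. Wt1 averaged 227 FPKM in β-catenin ΔGSK against 97.8 in FAK KO cells, Krt8 181 against 317 FPKM, and Upk3b 31.6 FPKM in FAK-R454 against 4.03 in FAK KO cells. Of 7 immune markers found, only Cd68 was above 1 FPKM, and the pan-leukocyte marker Ptprc averaged 0.00 FPKM in every line. The summed immune level was 6.71 to 12.4 FPKM in FAK-WT cells and 1.14 to 4.34 FPKM in the other lines. Of 5 endothelial markers Kdr averaged 0.00 FPKM in every line, and the summed level, mostly Tek, was 29.6 to 30.004 FPKM in KMF, 6.59 to 7.46 FPKM in β-catenin ΔGSK and 17.2 to 19.3 FPKM in the other lines. The part of these marker levels in the results below was not tested. In bulk RNA a change in the level per cell and a change in the share of cells that express a gene cannot be told apart.

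Ptk2 transcript was highest where FAK had been put back and was retained in the knockout. It measured 24.8, 24.2 and 23.9 FPKM in the KMF samples and 20.5, 17.6 and 18.9 FPKM in the FAK KO samples. FAK-WT samples held 42.3, 42.5 and 45.4 FPKM, FAK-R454 samples 59.2 and 65.5 FPKM, and β-catenin ΔGSK samples 15.4, 15.9 and 15.1 FPKM. The samples of the 5 lines fell into separate ranges, in the order FAK-R454, FAK-WT, KMF, FAK KO and β-catenin ΔGSK. The edit shifts the reading frame and leaves a transcript to be counted, so the level in FAK KO cells is no check of the knockout. Fragments of the introduced FAK count as Ptk2, so the higher levels in FAK-WT and FAK-R454 cells follow from how these lines were made. Relative to FAK KO, Ptk2 was higher in FAK-WT cells by 1.19 on the log2 scale (SE, the standard error, 0.07, adjusted p = 2.96e-05) and in FAK-R454 cells by 1.71 (SE 0.08, adjusted p = 2.68e-05). KMF cells were higher than FAK KO by 0.36 (SE 0.07, adjusted p = 0.00329), and β-catenin ΔGSK cells were lower, with a log2 fold change of -0.29 (SE 0.08, adjusted p = 0.0103). Here and below, log2 fold changes are on the log2(FPKM + 0.1) scale and adjusted p-values come from limma, adjusted by Benjamini-Hochberg over all genes tested.

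Ptk2b, the PYK2 gene, followed a different order. Its level was 6.47, 6.10 and 5.03 FPKM in KMF, 7.71, 9.47 and 8.44 FPKM in FAK KO, and 9.04, 8.74 and 7.17 FPKM in FAK-WT samples. FAK-R454 samples held 12.4 and 12.1 FPKM and β-catenin ΔGSK samples 14.6, 16.0 and 18.6 FPKM. FAK KO and FAK-WT samples overlapped, while KMF lay below both and the other 2 lines above. Ptk2b was 1.92 times as high in β-catenin ΔGSK as in FAK KO cells on the scale of means (log2 fold change 0.93, SE 0.11, adjusted p = 1.40e-04), and higher in FAK-R454 cells by 0.52 (SE 0.10, adjusted p = 0.00837), a call that ended without FAK-R454 sample 1 (0.0979) or 2 (0.0691). It was lower in KMF than in FAK KO cells, with a log2 fold change of -0.54 (SE 0.11, adjusted p = 0.00464). Between FAK-WT and FAK KO the difference was -0.04 (SE 0.11, adjusted p = 0.789), while FAK-WT stood above KMF by 0.50 (SE 0.12, adjusted p = 0.0156). The call over KMF ended without FAK-WT sample 1 (adjusted p = 0.0516) or 2 (0.0572).

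**Figure D1:**
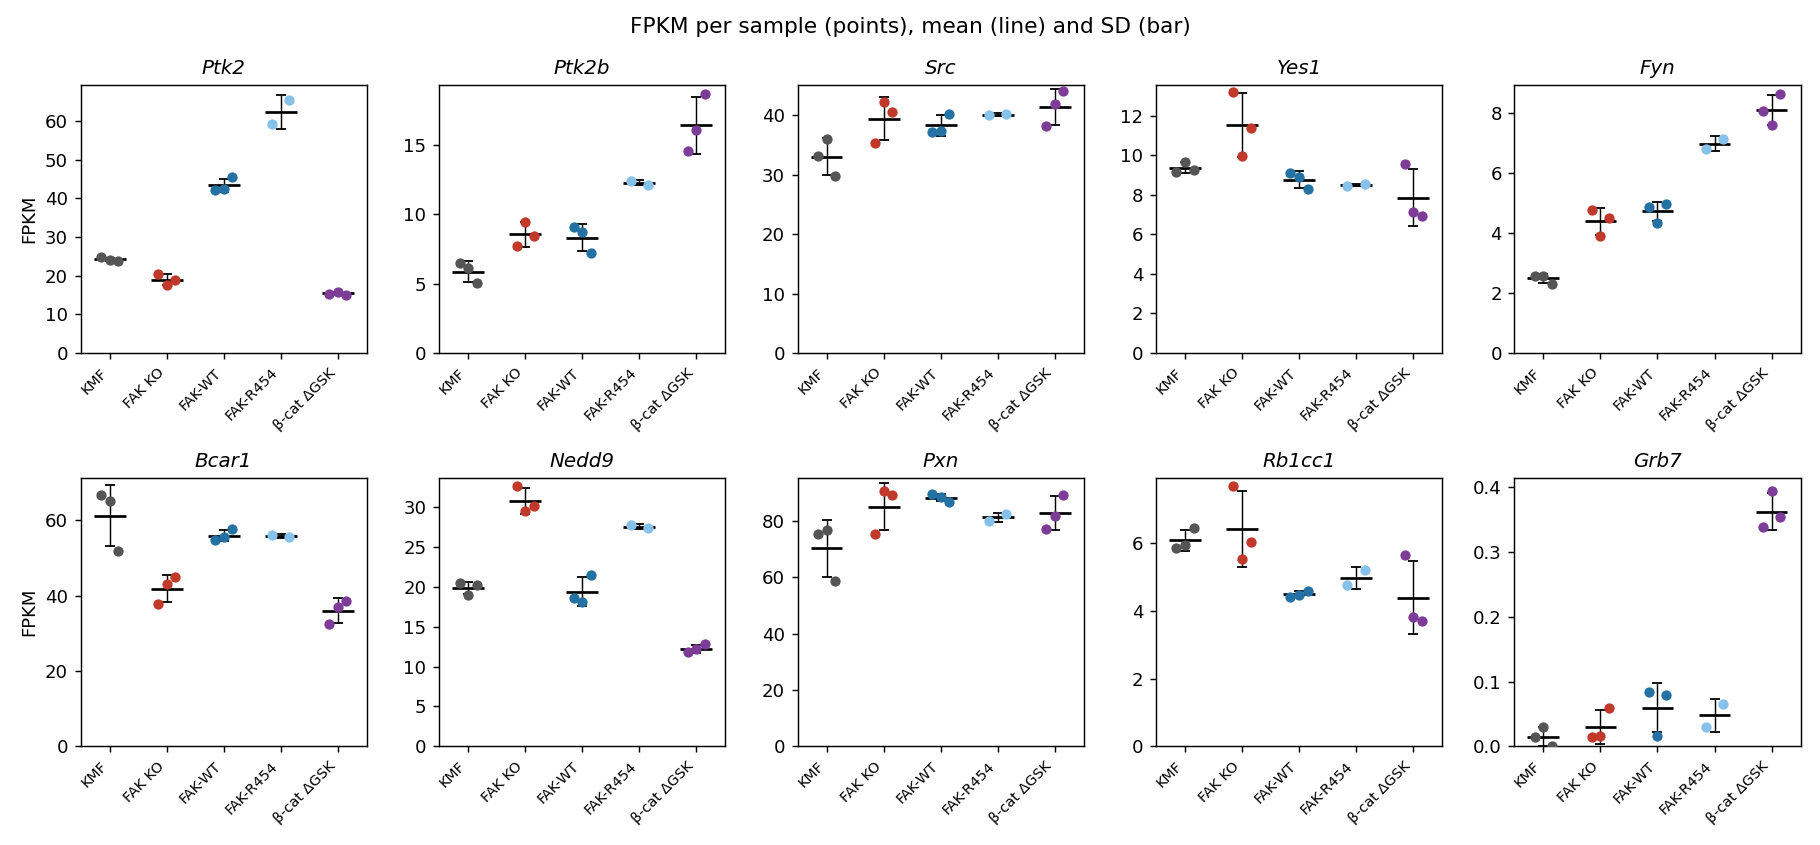
FPKM (y axis, from 0) of the 10 genes in each of 14 samples, grouped by line (x axis), where points are samples, lines are means and bars are SD (stopped at 0). Ptk2 peaked in FAK-R454 cells, Ptk2b, Fyn and Grb7 peaked in β-catenin ΔGSK cells, and Nedd9 was highest in FAK KO cells.

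Among the SRC family kinases, Fyn passed the test in 5 of 6 comparisons, Yes1 in 4 and Src in 1. Src itself was at 33.2, 36.0 and 29.9 FPKM in KMF and at 35.3, 42.3 and 40.6 FPKM in FAK KO samples. In the other lines Src ran from 37.2 to 44.1 FPKM, and every one of these samples was above the KMF samples. Src passed the test in 1 of 6 comparisons, KMF over FAK KO, with a log2 fold change of -0.25 (adjusted p = 0.0466). The ranges of those lines overlapped, and leaving out KMF sample 1 (adjusted p = 0.102), KMF sample 3 (0.110), FAK KO sample 2 (0.130) or FAK KO sample 3 (0.138) ended that call, as did testing with no filter on low values (0.0814). FAK-WT over KMF, at 0.22 (adjusted p = 0.0599), passed without KMF sample 2 (adjusted p = 0.0349), with median-of-ratios scaling (0.0454) and in 1 fit of all 5 lines (0.0488).

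Fyn, which encodes a kinase with the same docking site on FAK, was at 2.58, 2.57 and 2.31 FPKM in KMF and 4.75, 3.90 and 4.49 FPKM in FAK KO samples. FAK-WT samples held 4.85, 4.34 and 4.94 FPKM, FAK-R454 samples 6.78 and 7.13 FPKM, and β-catenin ΔGSK samples 8.04, 7.60 and 8.60 FPKM. FAK KO and FAK-WT samples overlapped and the other lines lay apart from them and from each other, the same order as for Ptk2b apart from the overlapping pair. Relative to FAK KO, Fyn was 1.85 times as high in β-catenin ΔGSK cells (log2 fold change 0.87, SE 0.10, adjusted p = 1.11e-04) and 1.59 times as high in FAK-R454 cells (log2 fold change 0.66, SE 0.11, adjusted p = 0.00476). The FAK-R454 call of Fyn ended without sample 2 of that line (adjusted p = 0.0612). In KMF cells the log2 fold change was -0.79 (SE 0.11, adjusted p = 4.26e-04). In FAK-WT cells it was 0.11 (SE 0.10, adjusted p = 0.431).

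Yes1, the third of these kinases, was highest in the knockout. FAK KO samples held 13.2, 9.98 and 11.4 FPKM, KMF samples 9.16, 9.67 and 9.27 FPKM and FAK-WT samples 9.09, 8.90 and 8.27 FPKM. FAK-R454 samples held 8.45 and 8.52 FPKM, and β-catenin ΔGSK samples 9.53, 7.14 and 6.90 FPKM. All FAK KO samples lay above every sample of the other lines. Over FAK KO, Yes1 had log2 fold changes of -0.55 for β-catenin ΔGSK (adjusted p = 0.010003), -0.43 for FAK-R454 (adjusted p = 0.0345), -0.38 for FAK-WT (adjusted p = 0.0200) and -0.29 for KMF (adjusted p = 0.0403). The FAK-WT call ended without FAK KO sample 1 (adjusted p = 0.0501) or sample 3 (0.0628), and the FAK-R454 call without FAK KO sample 3 (0.0920) or either FAK-R454 sample (0.202 and 0.165). The KMF call ended without any one of KMF samples 1, 2 and 3 (adjusted p = 0.111, 0.0692 and 0.0703) or FAK KO samples 1 and 3 (0.102 and 0.0951). With no filter on low values the FAK-R454 and KMF calls ended too (adjusted p = 0.0888 and 0.0739). All these Yes1 calls over FAK KO ended with each chromosome centred on its own median, as given below.

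The promoter of Fyn is shown because Fyn was highest with β-catenin ΔGSK, and β-catenin acts through TCF and LEF proteins, whose binding site has the core letters CTTTGA. RefSeq promoters (build GRCm38.p6) matched 5 of the 10 genes, with 6 entries. The 250 bases before the start were searched on both strands for the letters CTTTGA, which read TCAAAG on the opposite strand. Of 32851 promoters, 13.8% hold them. Of the 6 entries only that of Fyn held it, once, 96 bases before the RefSeq start of that entry. The first 200 bases of that window (chr10:39369549-39369748, plus strand) are given with the match in capitals.
Fyn promoter: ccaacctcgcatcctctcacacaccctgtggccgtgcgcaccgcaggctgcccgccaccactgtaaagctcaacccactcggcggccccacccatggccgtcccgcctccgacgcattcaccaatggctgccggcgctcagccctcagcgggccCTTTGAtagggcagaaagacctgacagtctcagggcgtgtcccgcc
The match describes these letters alone, and the entries of Nedd9, Bcar1 (2 entries), Src and Yes1 did not hold the letters in this window.

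Of the CAS scaffolds among these genes, Nedd9 was higher and Bcar1 lower in the FAK KO clone than in KMF cells. Nedd9, which encodes HEF1, was at 20.4, 19.0 and 20.2 FPKM in KMF and at 32.6, 29.5 and 30.1 FPKM in FAK KO samples. It was at 18.6, 18.1 and 21.5 FPKM in FAK-WT, 27.7 and 27.3 FPKM in FAK-R454 and 11.8, 12.2 and 12.8 FPKM in β-catenin ΔGSK samples. FAK-WT and KMF samples overlapped, all FAK KO samples lay above every other sample, and all β-catenin ΔGSK samples lay below. The log2 fold change over FAK KO was -1.32 in β-catenin ΔGSK cells (SE 0.07, adjusted p = 1.21e-06), the only fall of a member by more than 1 on the log2 scale. It was -0.66 in FAK-WT cells (SE 0.08, adjusted p = 6.77e-04) and -0.63 in KMF cells (SE 0.07, adjusted p = 1.08e-04). In FAK-R454 cells the difference of -0.16 did not pass (SE 0.07, adjusted p = 0.137), although the samples of these lines did not overlap.

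Bcar1, which encodes p130CAS, was at 66.6, 65.0 and 51.9 FPKM in KMF and at 37.7, 42.9 and 44.9 FPKM in FAK KO samples. It was at 54.7, 55.5 and 57.5 FPKM in FAK-WT, 56.1 and 55.5 FPKM in FAK-R454 and 32.3, 36.9 and 38.6 FPKM in β-catenin ΔGSK samples. All samples with intact or introduced FAK lay above all samples without it. Over FAK KO the log2 fold change was 0.54 in KMF (SE 0.11, adjusted p = 0.00331), 0.42 in FAK-WT (SE 0.08, adjusted p = 0.00380) and 0.42 in FAK-R454 cells (SE 0.08, adjusted p = 0.0113), the last of which did not pass without FAK-R454 sample 1 (0.115) or 2 (0.0903). In β-catenin ΔGSK cells it was -0.22 (SE 0.09, adjusted p = 0.0694), and it passed without FAK KO sample 1 (adjusted p = 0.0292). FAK-WT over KMF, at -0.12 (adjusted p = 0.351), passed without KMF sample 3 at -0.24 (adjusted p = 0.00893).

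Pxn, the gene of the adhesion scaffold paxillin, had the highest mean FPKM, a level per length, of the members in every line. Its samples ran from 58.6 to 76.9 FPKM in KMF and from 75.4 to 90.5 FPKM over the other lines. It passed the test in 1 of 6 comparisons, FAK-WT over KMF, with a log2 fold change of 0.34 (SE 0.10, adjusted p = 0.0342). That call ended without FAK-WT sample 1, 2 or 3 (adjusted p = 0.0868, 0.0914 and 0.0567) or with no filter on low values (0.0590). KMF over FAK KO, at -0.28 (adjusted p = 0.0713), passed without FAK KO sample 1 (adjusted p = 0.0382) and in 1 fit of all 5 lines (0.0265), and FAK-WT over FAK-R454, at 0.12 (adjusted p = 0.164), passed without FAK-WT sample 3 (adjusted p = 0.0327).

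Rb1cc1, the gene of the FAK inhibitor FIP200, was at 5.86, 5.94 and 6.44 FPKM in KMF and 7.69, 5.53 and 6.02 FPKM in FAK KO samples. FAK-WT samples held 4.41, 4.48 and 4.57 FPKM, FAK-R454 samples 4.75 and 5.20 FPKM, and β-catenin ΔGSK samples 5.64, 3.82 and 3.70 FPKM. All FAK-WT samples lay below all KMF and FAK KO samples, while sample 1 of the β-catenin ΔGSK line reached into the FAK KO range. In FAK-R454 over FAK KO, where the samples did not overlap, the log2 fold change was -0.35 (SE 0.14, adjusted p = 0.112), and it passed without FAK KO sample 2 (adjusted p = 0.0204). It was -0.49 in FAK-WT over FAK KO (SE 0.12, adjusted p = 0.0138) and -0.43 in FAK-WT over KMF (SE 0.07, adjusted p = 0.00237). With each chromosome centred on its own median, the log2 fold change of Rb1cc1 in FAK-WT over KMF was -0.10 and did not pass (adjusted p = 0.278). In β-catenin ΔGSK over FAK KO it was -0.55 (SE 0.18, adjusted p = 0.0270), a call that ended without FAK KO sample 1 (adjusted p = 0.0945) or 3 (0.0503) and without β-catenin ΔGSK sample 2 (0.0896) or 3 (0.0888), or with no filter on low values (0.0615). Sample 1 was the highest of its line for both Yes1 and Rb1cc1 in the FAK KO and in the β-catenin ΔGSK cells, and the lowest of its line there for Src, Bcar1 and Pxn.

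Grb7 was close to absent outside one line. Its level rested on 1, 2 and 0 fragments in KMF, 1, 1 and 4 in FAK KO, 6, 1 and 6 in FAK-WT and 2 and 5 in FAK-R454 samples. The β-catenin ΔGSK samples held 23, 24 and 25 fragments, or 0.338, 0.394 and 0.354 FPKM, and lay above all other samples. Scaled to depth, β-catenin ΔGSK libraries held 12.1 times as many Grb7 fragments as FAK KO libraries (95% exact interval 5.31 to 34.2, covering counting error only). No line reached the 1 FPKM that a gene needed to enter the test, so Grb7 has no place in the counts below. With no filter on low values its log2 fold change in that comparison was 1.85 (SE 0.20, adjusted p = 4.91e-04).

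With Grb7 left out by the filter, 9 of the 10 genes entered each comparison. Fragments of the introduced FAK count as Ptk2. Ptk2 calls as higher in FAK-WT and FAK-R454 cells were thus built into these lines, though they are counted below. FAK-WT over FAK KO gave 2 members higher (Ptk2, Bcar1) and 3 lower (Yes1, Nedd9, Rb1cc1), where 15.6% of all 11841 genes tested were higher and 25.2% lower. In 5 of the 9 the samples did not overlap, against 56.1% of all genes. FAK-R454 over FAK KO gave 4 higher (Ptk2, Ptk2b, Fyn, Bcar1) and 1 lower (Yes1), against 9.78% and 9.89% of 11818 genes, and 7 of 9 without overlap, against 55.1%. With either FAK-R454 sample left out, 2 or 1 members stayed higher and 0 lower: Ptk2 and Fyn without sample 1, and Ptk2 without sample 2.

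In β-catenin ΔGSK over FAK KO, 2 members were higher (Ptk2b, Fyn) and 4 lower (Ptk2, Yes1, Nedd9, Rb1cc1), against 23.7% and 34.4% of 11915 genes, and 5 of 9 did not overlap, against 64.2%. In KMF over FAK KO, 2 were higher (Ptk2, Bcar1) and 5 lower (Ptk2b, Src, Yes1, Fyn, Nedd9), against 23.1% and 28.7% of 11893 genes, and 6 of 9 did not overlap, against 60.8%. FAK-WT over KMF gave 4 higher (Ptk2, Ptk2b, Fyn, Pxn) and 1 lower (Rb1cc1), against 18.2% and 23.5% of 11847 genes, and 7 of 9 did not overlap, against 55.5%. In that comparison Ptk2b did not pass without FAK-WT sample 1 (adjusted p = 0.0516) or 2 (0.0572). The 4 comparisons with FAK KO share its 3 samples, so their members' values stand side by side and are not independent of each other.

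**Figure D2:**
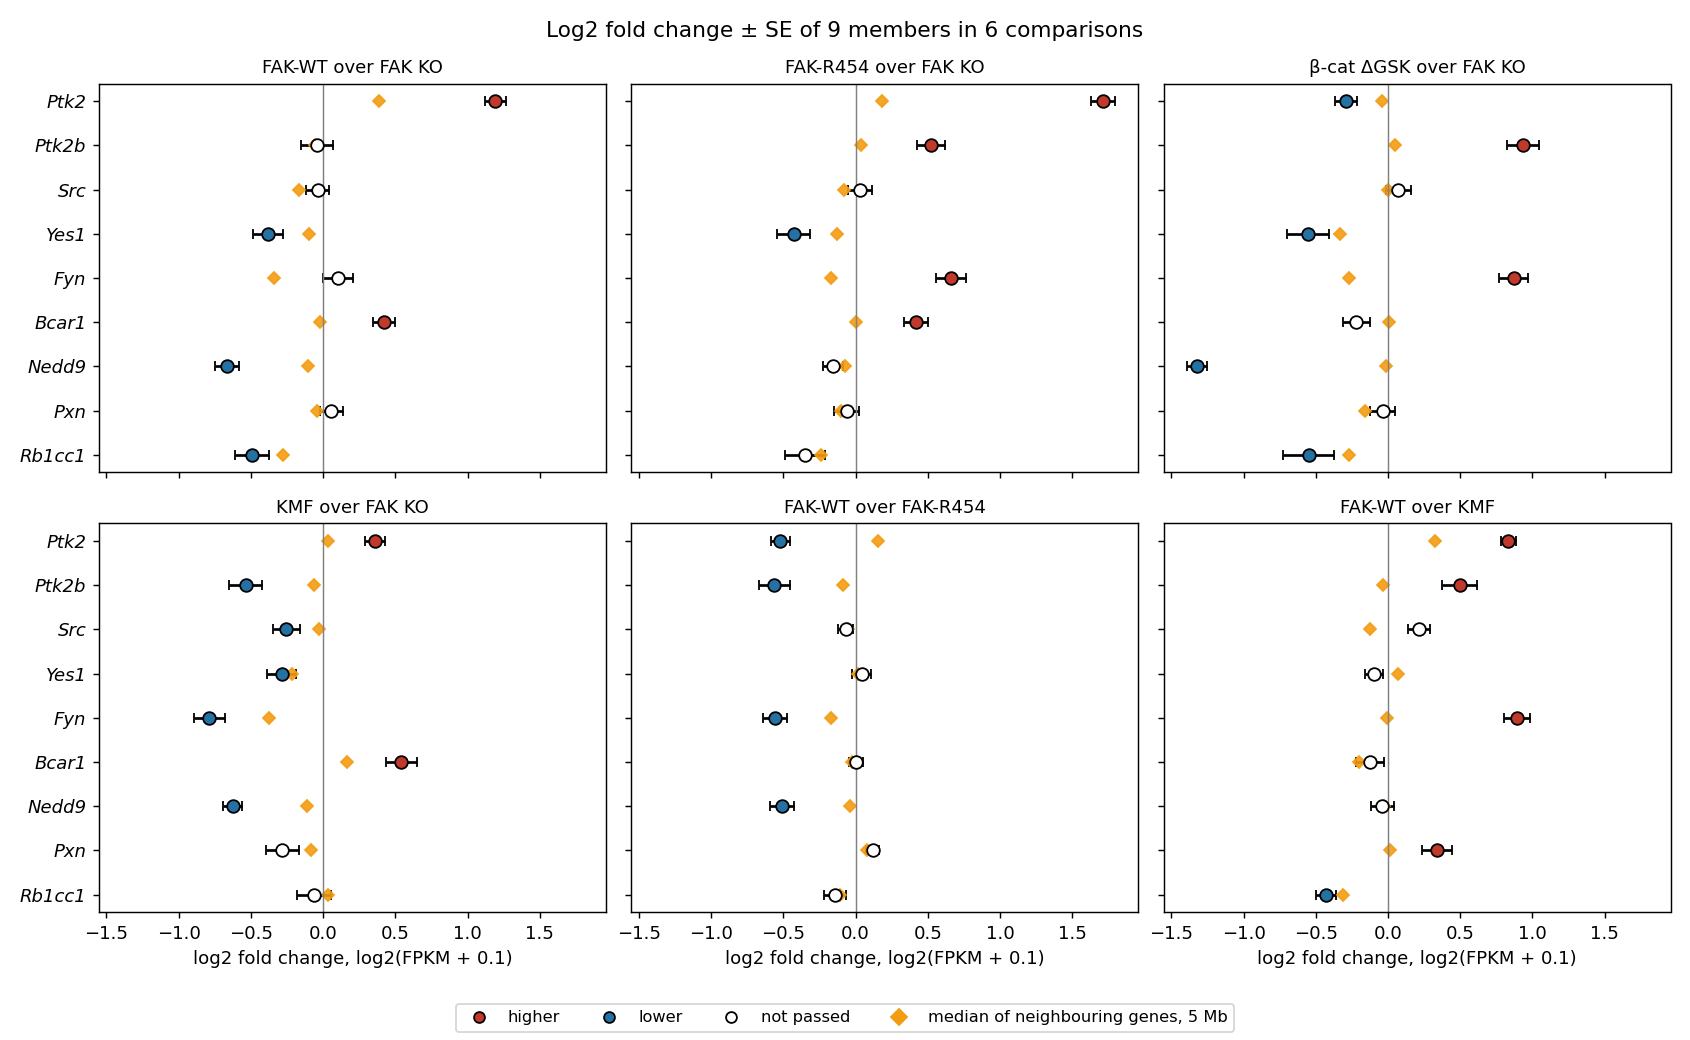
Log2 fold change on the log2(FPKM + 0.1) scale (x axis) with its SE for the 9 tested genes (y axis) in the 6 comparisons, red where higher, blue where lower and white where the test was not passed, with orange diamonds for the median of the neighbouring genes within 5 Mb. Ptk2, counted together with the introduced FAK, has the largest rise, 1.71 in FAK-R454 over FAK KO. Nedd9 has the largest fall, -1.32 in β-catenin ΔGSK over FAK KO.

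Whether the introduced FAK can act as a kinase separates FAK-WT from FAK-R454 cells, and compared with FAK-R454 cells 4 members were lower in FAK-WT cells and 0 higher, against 4.44% and 3.38% of 11782 genes. They were Ptk2 (log2 fold change -0.52, SE 0.06, adjusted p = 0.0121), Fyn (-0.56, SE 0.08, adjusted p = 0.0197), Nedd9 (-0.51, SE 0.08, adjusted p = 0.0242) and Ptk2b (-0.56, SE 0.11, adjusted p = 0.0349). For all 4 the samples of the lines did not overlap, as for 6 of the 9 tested members and 48.5% of all genes. Total Ptk2 transcript, which includes the introduced FAK, was 1.44 times as high in FAK-R454 as in FAK-WT cells. The lines were also made separately. The amount of Ptk2 transcript, the kinase change and other differences between the lines thus cannot be told apart. Bcar1 differed by 0.00 (SE 0.05, adjusted p = 0.971), Yes1 by 0.04 (SE 0.07, adjusted p = 0.705) and Src by -0.07 (SE 0.05, adjusted p = 0.455). The Ptk2b call ended with no filter on low values (adjusted p = 0.0624) or no mean-variance trend in the fit (0.0551). With only 2 FAK-R454 samples, leaving either out ended all 4 calls, with adjusted p from 0.0967 to 0.247 without sample 1 and from 0.150 to 0.252 without sample 2. Leaving out FAK-WT sample 2 ended them too (0.0636 to 0.0972), and leaving out FAK-WT sample 1 left 1 call, that of Ptk2.

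The balance between relatives was compared as a ratio of FPKM within each sample. For Ptk2b over Ptk2 it was 1.06 ± 0.151 in β-catenin ΔGSK, 0.454 ± 0.0813 in FAK KO, 0.241 ± 0.0275 in KMF and 0.192 ± 0.0302 in FAK-WT cells (SD, n = 3 each). In FAK-R454 cells it was 0.197 ± 0.0171 (SD, n = 2). The mean ratio was above 1 in β-catenin ΔGSK cells alone, where single samples ran from 0.947 to 1.23. The FAK KO samples, at 0.377 to 0.539, did not overlap any other line. In FAK-WT and FAK-R454 cells the introduced FAK is part of the Ptk2 value. Two-sided exact permutation tests of these ratios could reach no p below 0.1 with 3 against 3 samples and none below 0.2 with 3 against 2. They gave 0.1 for FAK KO against FAK-WT, KMF and β-catenin ΔGSK cells and 0.2 for FAK KO against FAK-R454 cells.

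The ratio of Nedd9 to Bcar1 was 0.741 ± 0.106 in FAK KO cells (SD, n = 3). It was 0.341 ± 0.0199 in β-catenin ΔGSK, 0.329 ± 0.0531 in KMF and 0.347 ± 0.0246 in FAK-WT cells (SD, n = 3 each), and 0.494 ± 0.00108 in FAK-R454 cells (SD, n = 2). FAK KO samples, at 0.672 to 0.863, lay above every other sample, FAK-R454 samples lay between, and the samples of the other 3 lines overlapped. The two-sided exact permutation p was 0.1 for FAK KO against each of those 3 lines and 0.2 against FAK-R454 cells, the smallest these designs allow. In β-catenin ΔGSK cells the ratio came from a lower Nedd9 beside a Bcar1 that had not risen, whereas in KMF and FAK-WT cells both genes differed from FAK KO.

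Of the summed Src, Yes1 and Fyn FPKM, Src made up 71.2 to 74.0% on average in all 5 lines. Fyn made up 14.1% ± 0.598 in β-catenin ΔGSK, 9.10% ± 0.473 in FAK-WT, 7.93% ± 0.986 in FAK KO and 5.55% ± 0.201 in KMF cells (SD, n = 3 each). In FAK-R454 cells its share was 12.5% ± 0.339 (SD, n = 2). FAK KO and FAK-WT samples overlapped in this share and the other lines did not. Yes1 made up 13.8% ± 2.94 in β-catenin ΔGSK, 16.9% ± 1.29 in FAK-WT, 20.9% ± 3.57 in FAK KO and 20.9% ± 1.26 in KMF cells (SD, n = 3 each). In FAK-R454 cells its share was 15.3% ± 0.0453 (SD, n = 2).

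**Figure D3:**
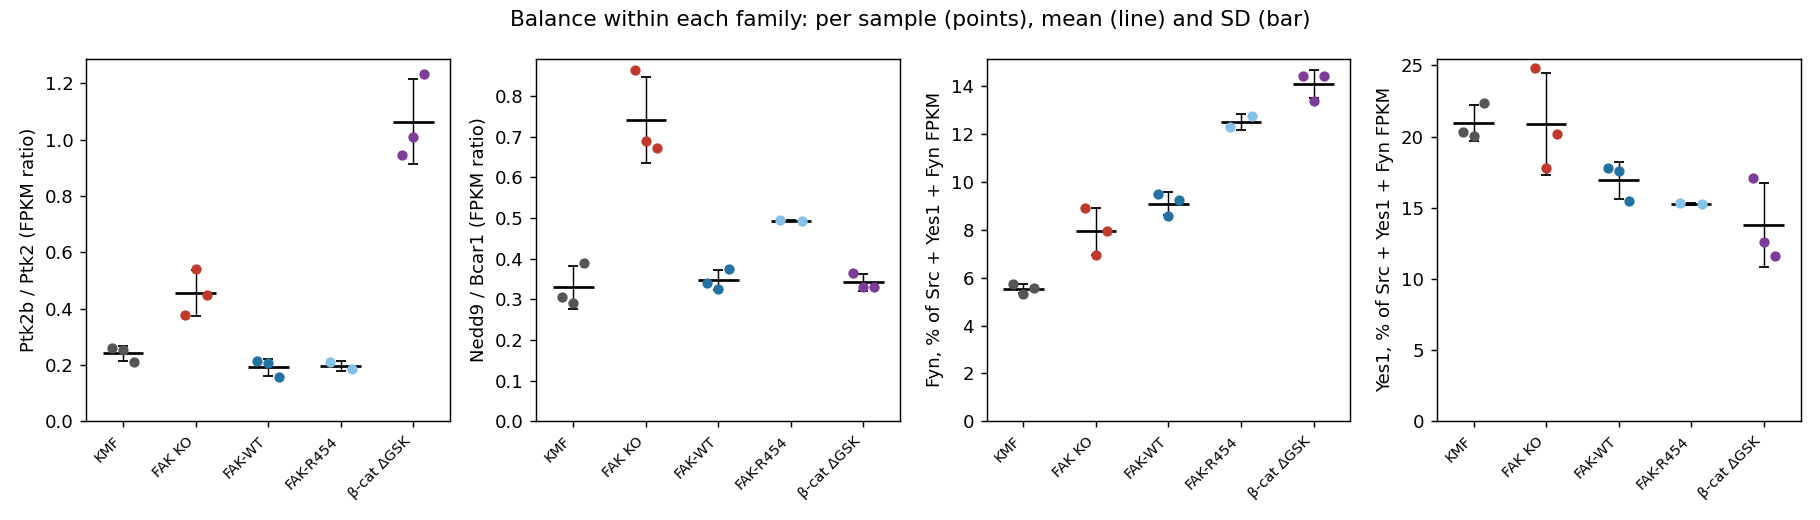
Ratio of Ptk2b to Ptk2, ratio of Nedd9 to Bcar1, and percent of the summed Src, Yes1 and Fyn FPKM from Fyn and from Yes1 (y axes, from 0) in each sample by line (x axis), with points for samples, lines for means and bars for SD. The Ptk2b to Ptk2 ratio reaches 1.23 in β-catenin ΔGSK cells, and the Nedd9 to Bcar1 ratio is highest in FAK KO cells.

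The genes around Ptk2 on chromosome 15 were examined because all lines derive from a tumor line and KT13 is 1 clone. In FAK-WT over FAK KO the 82 tested genes within 5 Mb of Ptk2 centred on a log2 fold change of 0.38 (median), where the median of all genes tested was -0.08. In FAK-WT over KMF the median of 83 such genes was 0.33. In FAK-R454 over FAK KO the median of 81 genes was 0.18, in KMF over FAK KO that of 82 genes was 0.03, and in β-catenin ΔGSK over FAK KO that of 79 genes was -0.04. In this last comparison the window decided the value, since the 19 genes within 2 Mb had a median of -0.48, below Ptk2 itself at -0.29. The neighbours were thus higher in FAK-WT cells by their median, and Ptk2 itself stood 0.81 above that median in FAK-WT and 1.53 above it in FAK-R454 over FAK KO. In FAK-WT over FAK-R454 the neighbours had a median of 0.15 while Ptk2 was at -0.52. With each chromosome centred on its own median, the rise of Ptk2 in FAK-WT over FAK KO was 0.89. Ptk2 values of FAK-WT and FAK-R454 cells include the introduced FAK. Their distance from the neighbours thus does not describe the gene on chromosome 15.

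The surroundings of the other members were read in the same way. The 41 genes within 5 Mb of Fyn on chromosome 10 had a median of -0.27 in β-catenin ΔGSK over FAK KO, where Fyn was at 0.87. Around Nedd9 on chromosome 13, 30 genes had a median of -0.02 there, where Nedd9 was at -1.32. The 61 genes around Ptk2b on chromosome 14 had a median of 0.05 and the 20 within 2 Mb one of 0.31, where Ptk2b was at 0.93. In KMF over FAK KO the 41 genes around Fyn were at -0.38, in the same direction as Fyn at -0.79. Centring each chromosome on its own median ended all 4 calls of Yes1 over FAK KO, which was then at -0.27 with FAK-WT (adjusted p = 0.0842), -0.30 with FAK-R454 (adjusted p = 0.106), -0.24 with β-catenin ΔGSK (adjusted p = 0.178) and -0.10 for KMF (adjusted p = 0.458). It also ended the calls of Src in KMF over FAK KO (adjusted p = 0.104), of Ptk2b (0.0912) and Nedd9 (0.0614) in FAK-WT over FAK-R454, and of Pxn (0.0956) and Rb1cc1 (0.278, log2 fold change -0.10) in FAK-WT over KMF. Src in FAK-WT over KMF then passed, at 0.35 (adjusted p = 0.0157). The 18 genes near Rb1cc1 on chromosome 1 had a median of -0.28 in FAK-WT over FAK KO and the 7 within 2 Mb one of -0.54, where Rb1cc1 was at -0.49. In FAK-WT over KMF the 18 genes had a median of -0.31, where Rb1cc1 was at -0.43.

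The wider pathway was read from 9 lists with 66 other genes found in the table. In FAK-WT over FAK KO, 53 of them were tested, 9 were higher and 18 lower, with a median log2 fold change of -0.10. In β-catenin ΔGSK over FAK KO, 11 of 53 were higher and 26 lower, with a median of -0.19 where all genes tested had -0.09. FAK-R454 over FAK KO gave 8 higher and 4 lower of 53, KMF over FAK KO 10 and 19 of 53, FAK-WT over KMF 14 and 14 of 52, and FAK-WT over FAK-R454 2 and 5 of 52. With 1 sample left out, 6 to 11 were higher in KMF over FAK KO and 8 to 14 lower in FAK-WT over KMF. The counts with FAK-R454 rest on both samples of that line. Without FAK-WT sample 2, FAK-WT over FAK-R454 gave 1 higher and 0 lower. The shares of all genes in the same comparisons are given above, and the lists were not tested against them.

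Among 6 PYK2 binding partners all were tested. In KMF over FAK KO 5 of 6 were lower, with a median of -0.75, and in FAK-WT over KMF 4 were higher and 1 lower, with a median of 0.61. In β-catenin ΔGSK over FAK KO 0 were higher and 4 lower (median -0.30), where Ptk2b was higher. FAK-WT over FAK KO gave 2 higher and 3 lower (median -0.21), FAK-R454 over FAK KO 1 and 1 (median -0.02), and FAK-WT over FAK-R454 0 and 2 (median -0.13). Without FAK KO sample 3 the number higher was 0 in FAK-WT and in FAK-R454 over FAK KO, and without any other sample but FAK-WT sample 3 it was 1 in FAK-WT over FAK KO. Without FAK-R454 sample 1 no partner passed in either comparison of that line, and without sample 2 the numbers were 0 higher and 1 lower over FAK KO and 0 lower in FAK-WT over FAK-R454, where it was also 0 without FAK-WT sample 2. In FAK-R454 over FAK KO, leaving out FAK KO sample 1 gave 2 lower and leaving out FAK KO sample 2 gave 2 higher. Pitpnm3, a phosphatidylinositol transfer protein relative that binds PYK2, averaged 5.32 FPKM in FAK KO and 5.37 in FAK-R454, against 2.78 in FAK-WT, 1.55 in KMF and 0.867 in β-catenin ΔGSK cells. Its log2 fold change over FAK KO was -2.49 in β-catenin ΔGSK (adjusted p = 1.16e-06), -1.72 in KMF (adjusted p = 1.07e-05), 0.02 in FAK-R454 (adjusted p = 0.915) and -0.92 in FAK-WT cells (adjusted p = 0.00160). In the first of these Pitpnm3 entered the test through FAK KO alone. Compared with FAK-R454, FAK-WT cells were at -0.94 (adjusted p = 0.0213), a call that ended without FAK-WT sample 2 (0.0840) or FAK-R454 sample 1 (0.187) or 2 (0.222). Sorbs2, an adhesion adaptor, was lower than FAK KO in all 4 other lines, from -0.48 in FAK-R454 cells (adjusted p = 0.0101) to -1.16 in FAK-WT cells (adjusted p = 1.01e-04), and without FAK-R454 sample 1 the FAK-R454 difference did not pass (adjusted p = 0.133).

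In the CAS and CRK-DOCK branch of 13 genes, 11 were tested in FAK-WT over FAK KO, with 2 higher and 3 lower, and 12 in β-catenin ΔGSK over FAK KO, with 4 higher and 5 lower. The number higher there was 2 without FAK KO sample 1 or 3 or β-catenin ΔGSK sample 2 or 3. Efs, a further CAS family scaffold, held 3.95, 3.39 and 2.40 FPKM in KMF, 8.35, 9.94 and 10.8 FPKM in FAK KO and 16.1, 17.0 and 16.4 FPKM in FAK-WT samples. It held 8.67 and 9.59 FPKM in FAK-R454 and 36.9, 43.1 and 40.0 FPKM in β-catenin ΔGSK samples. FAK-R454 and FAK KO samples overlapped and every other line stood apart. Efs rose over FAK KO by 2.04 with β-catenin ΔGSK (adjusted p = 9.74e-07) and by 0.77 with FAK-WT (adjusted p = 7.37e-04), and FAK-WT exceeded FAK-R454 by 0.85 (adjusted p = 0.00357), a call that ended without FAK-R454 sample 1 (0.0890) or 2 (0.0771). Bcar3, an exchange-factor-like protein that binds CAS scaffolds, exceeded FAK KO by 1.25 with FAK-WT (adjusted p = 4.49e-04), 1.02 with FAK-R454 (adjusted p = 0.00445), 0.91 for KMF (adjusted p = 7.10e-04) and 0.52 with β-catenin ΔGSK (adjusted p = 0.0309). Its FAK-R454 call ended without sample 1 (adjusted p = 0.0526) or 2 (0.0607) of that line, and its β-catenin ΔGSK call without FAK KO sample 1 (0.0899) or 3 (0.0947), without β-catenin ΔGSK sample 2 (0.108) or 3 (0.0989) and with no filter on low values (0.0721). Nck1, an SH2 adaptor, was lower in β-catenin ΔGSK than in FAK KO cells, with a log2 fold change of -1.24 (adjusted p = 2.70e-04).

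Of 6 regulators of SRC family kinases, 1 was higher and 3 were lower in FAK-WT over FAK KO. Ptpn6, the phosphatase SHP-1, rose over FAK KO by 1.48 with FAK-WT (adjusted p = 0.00115) and by 1.21 with FAK-R454 (adjusted p = 0.0131), the second of which did not pass without FAK-R454 sample 1 (0.0614) or 2 (0.146). Matk, a CSK relative that phosphorylates the inhibitory tail of SRC kinases, was lower than FAK KO, with log2 fold changes of -2.38 for β-catenin ΔGSK (adjusted p = 7.38e-05) and -1.25 for FAK-WT (adjusted p = 0.00421). Both genes were near the 1 FPKM limit in FAK KO cells, at 0.688 FPKM for Ptpn6 and 1.44 FPKM for Matk. Ptpn6 entered these tests only through its mean in FAK-WT (2.07 FPKM) or FAK-R454 cells (1.70 FPKM). Matk entered only through FAK KO, with means of 0.206 FPKM in β-catenin ΔGSK and 0.563 FPKM in FAK-WT cells. The difference tested thus decided the entry of both genes, and their p-values are no separate evidence of it. With a pseudocount of 1 their log2 fold changes over FAK KO shrank to 0.87 with FAK-WT and 0.68 with FAK-R454 for Ptpn6, and to -1.02 with β-catenin ΔGSK and -0.65 with FAK-WT for Matk, and all 4 still passed. In the paxillin and GIT-PIX branch, Pak1, a kinase activated by RAC, rose over FAK KO by 0.65 with FAK-WT (adjusted p = 0.0120) and by 0.60 with FAK-R454 (adjusted p = 0.00612), while β-catenin ΔGSK cells were lower, at -1.84 (adjusted p = 9.79e-06). The FAK-R454 call of Pak1 ended without sample 1 (adjusted p = 0.0672) or 2 (0.0636) of that line.

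**Figure D4:**
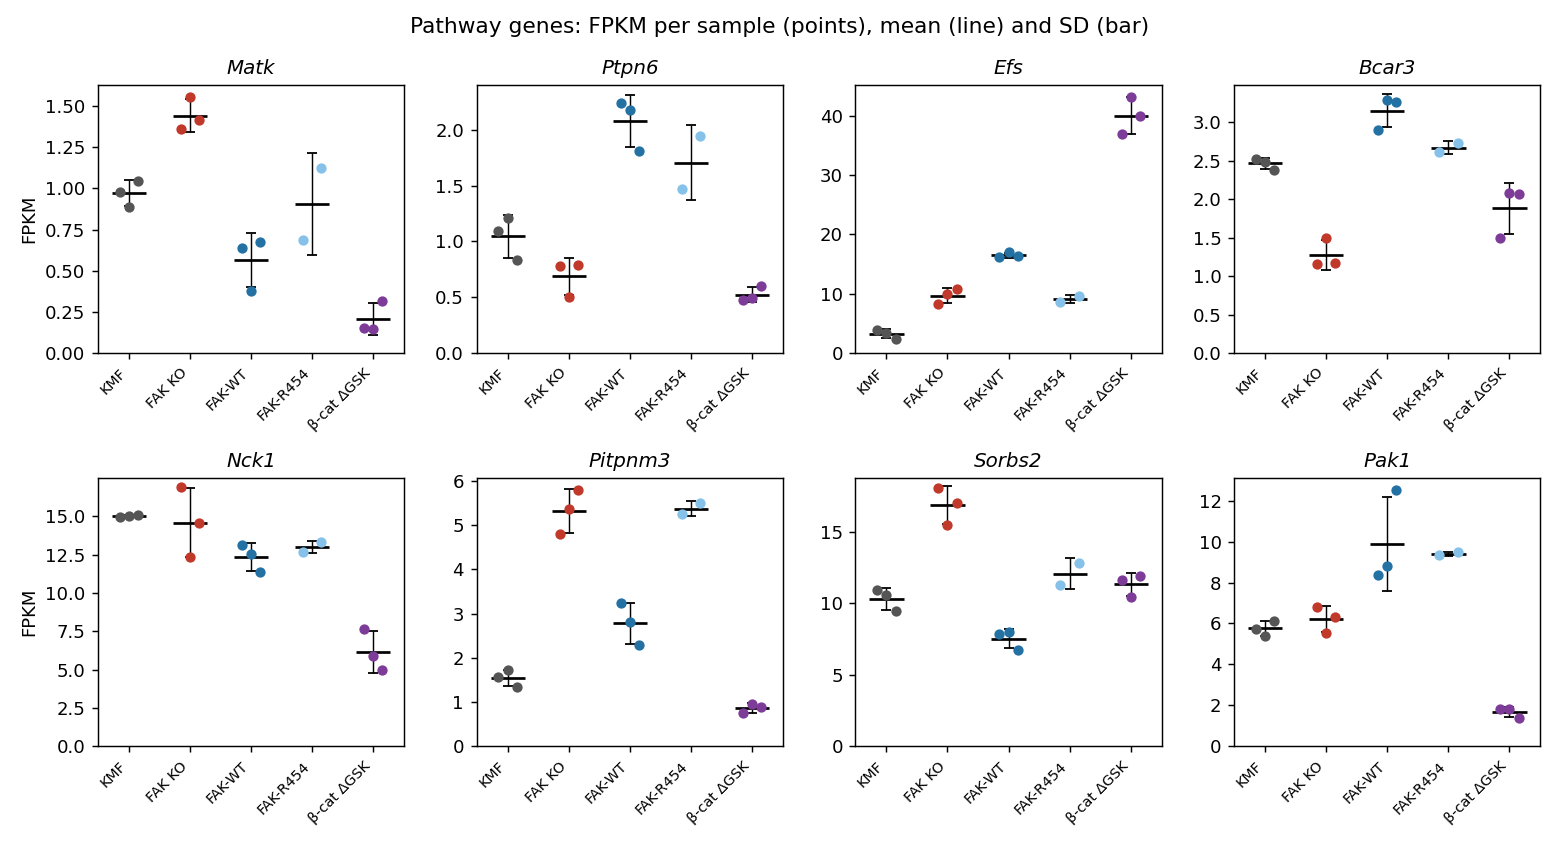
FPKM (y axis, from 0) of 8 further pathway genes in each of 14 samples by line (x axis), with points for samples, lines for means and bars for SD. Efs is highest in β-catenin ΔGSK cells, at 36.9 to 43.1 FPKM, and Pak1 and Pitpnm3 are lowest there.

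In the remaining lists every gene that passed had moved by less than 1 on the log2 scale. The other SRC family kinases had 2 of 6 genes tested, with 1 lower in FAK-WT over FAK KO and in β-catenin ΔGSK over FAK KO, the second of which did not pass without β-catenin ΔGSK sample 2. Of 7 tested FAK-binding exchange factors and GTPase-activating proteins, 1 was higher and 3 lower in FAK-WT over FAK KO, and 3 and 3 in β-catenin ΔGSK over FAK KO. Of 5 partners of FIP200 in autophagy initiation, 4 were lower in β-catenin ΔGSK over FAK KO and 0 higher. The 8 tested GRB7 relatives and RAS or PI3K adaptors gave 1 higher and 2 lower in FAK-WT over FAK KO and 3 and 3 in β-catenin ΔGSK over FAK KO. In the first of these the number lower was 1 without FAK KO sample 1 or 3 or FAK-WT sample 1 or 2, and the number higher was 2 without FAK-WT sample 3. Of 3 tested phosphatases that act on FAK or paxillin, 2 were lower in each of these comparisons and 0 higher. In FAK-WT over FAK KO the number lower was 0 without any one sample other than FAK KO sample 2, while in β-catenin ΔGSK over FAK KO it stayed at 2 with each sample left out in turn.

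Likeness between profiles was described by Pearson's r of log2(FPKM + 0.1) over the 14 samples, which share lines and are not independent. Among the members, Ptk2b and Fyn were most alike (r = 0.93), followed by Yes1 and Rb1cc1 (0.89) and by Src and Pxn (0.83), while Ptk2 and Ptk2b had r = -0.17. Of 12256 genes, those most like Ptk2 were Tspan12 (0.97), Plxnb3 (0.96), Angptl7, Fcgrt and Ppic (0.95 each), none of them on chromosome 15. The Ptk2 profile they were matched to includes the introduced FAK. Tspan12 averaged 1.05 FPKM in FAK-R454 cells and 0.0480 to 0.475 FPKM in the other lines, so it was considered only through FAK-R454. Those most like Ptk2b were Soga3 (0.99), Plxna4 and Cops7a (0.98 each). Soga3 averaged 4.60 FPKM in β-catenin ΔGSK and 1.87 FPKM in FAK-R454 cells, and 0.407 to 0.972 FPKM in the other lines. Plxna4, a semaphorin co-receptor, averaged 20.6 FPKM in β-catenin ΔGSK, 14.1 in FAK-R454, 10.9 in FAK KO, 10.2 in FAK-WT and 6.72 in KMF cells, the same order of means as for Ptk2b.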

How the data were processed

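RNA of tumorspheres was sequenced from poly(A)-selected libraries. The authors deposited FPKM per gene, made per the submitters' processing notes with CASAVA 1.8 and STAR 2.5 on mm10, while the methods name TopHat2. The 5 lines hold 14 samples. The methods call the KMF samples independent, taken at several passages, and those of the other lines replicate RNA samples, so p-values measure the spread between these samples, which may be technical. In the comparisons of KMF with FAK KO and FAK-WT cells, FAK status cannot be told apart from cloning or from how the samples were taken. The methods give 3 samples for FAK-R454, of which 2 were analysed here. The 10 genes and the pathway lists were chosen with earlier results of these data known. The values were used as deposited. FPKM times gene length gave whole fragments for 100% of values (tolerance 0.01), from which depth was read. Each of 6 comparisons was fitted on its 2 lines with limma 3.58.1 (R 4.3.3, eBayes with trend) on log2(FPKM + 0.1), for genes with mean FPKM above 1 in either line. Genes with Benjamini-Hochberg adjusted p under 0.05 passed. Named are the 10 genes, list genes that passed with a log2 fold change of at least 1 in size in any comparison (up to 4 a list), and the 5 and 3 genes most like Ptk2 and Ptk2b. Fragments of FAK in its vector count as Ptk2. On simulated data with log2 changes of 1 and 0.5, the fit recovered 100% and 60.6% in FAK-WT over FAK KO (11650 genes), and 97% and 45.5% in FAK-R454 over FAK KO (11641 genes). The simulated spread was fixed rather than taken from these samples, and few genes were changed, so these rates need not hold for these data. Alternatives are given after the report.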

Additional observations from a re-analysis of the deposited data

Results flagged for a closer look

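FAK-WT and FAK-R454 cells differed in 4 of the genes when these lines were compared directly by limma. Ptk2 is counted together with the introduced FAK in both lines, so its difference cannot be read as a response of the cells. The log2 fold change of FAK-WT over FAK-R454 was -0.52 for Ptk2, -0.56 for Ptk2b, -0.56 for Fyn and -0.51 for Nedd9. For Ptk2b and Fyn the difference came with higher values in FAK-R454 than in FAK KO cells and no detected change in FAK-WT cells, and for Nedd9 with a fall in FAK-WT cells and none detected in FAK-R454 cells. All 4 calls rest on both FAK-R454 samples, since leaving either out ended them.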

How the results depend on the processing

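Single-gene log2 fold changes had the same direction and side of the threshold in 444 of 482 values from other settings and in 244 of 306 values with 1 sample left out. With median-of-ratios scaling, the sign turned for Ptk2b (0.0323) and Src (0.0350) in FAK-WT over FAK KO, Pxn (0.0447) in β-catenin ΔGSK over FAK KO and Nedd9 (0.00158) in FAK-WT over KMF, none of them called, and 3 members were lower in KMF over FAK KO. With each chromosome centred on its median, the sign turned for Ptk2b (0.0626) and Src (0.132) in FAK-WT over FAK KO, Pxn in FAK-R454 (0.0671) and β-catenin ΔGSK (0.280, adjusted p = 0.0263 from limma) over FAK KO and Src (0.0149) in FAK-WT over FAK-R454. Members lower were then 0 in FAK-R454 over FAK KO, 3 in KMF over FAK KO, 2 in FAK-WT over FAK-R454 and 0 in FAK-WT over KMF. List genes lower were then 10 in FAK-WT, 2 in FAK-R454 (5 higher) and 17 in β-catenin ΔGSK over FAK KO, 3 in FAK-WT over FAK-R454 (1 higher) and 8 in FAK-WT over KMF. Without the filter, 0 members were lower in FAK-R454 over FAK KO, 3 in KMF over FAK KO, and 1 list gene was higher in FAK-WT over FAK-R454. Without the trend these were 0, 3 and 1, with 5 list genes higher and 2 lower in FAK-R454 over FAK KO. By limma, calls of members that ended without the filter were those of Yes1 in FAK-R454 and KMF (adjusted p = 0.0888 and 0.0739), Src in KMF (0.0814) and Rb1cc1 in β-catenin ΔGSK (0.0615) over FAK KO, Ptk2b in FAK-WT over FAK-R454 (0.0624) and Pxn in FAK-WT over KMF (0.0590). Of the named list genes, Bcar3 in β-catenin ΔGSK over FAK KO lost its call in the same way (adjusted p = 0.0721 from limma). Without the trend, Yes1 in FAK-R454 (0.0677) and KMF (0.0579), Src in KMF (0.0733) and Ptk2b in FAK-WT over FAK-R454 (0.0551) did not pass, nor with median-of-ratios scaling Src (0.0975) and Yes1 (0.0596) in KMF over FAK KO. Src passed in FAK-WT over KMF with that scaling (0.0454). In 1 fit of all 5 lines Src in FAK-WT over KMF (0.0488) and Pxn (0.0265) and Ptpn6 (0.0280) in KMF over FAK KO passed, while Matk in KMF over FAK KO (0.0909) and Bcar3 (0.0536) and Nck1 (0.1003) in FAK-WT over KMF did not. A pseudocount of 1 changed no call of the members or named list genes. With limma-voom on recovered fragments, 8 list genes were lower in FAK-R454 over FAK KO, and with a filter of 5 FPKM, 9 were higher in FAK-WT over KMF. With a fold threshold, 1 member was higher in FAK-WT and in FAK-R454 over FAK KO, 1 was lower in β-catenin ΔGSK over FAK KO, and 0 in every other comparison and direction.

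Same-numbered samples did not pair in any comparison by the rule used, with correlations of their deviations across genes from -0.245 to 0.446, and only between β-catenin ΔGSK and FAK KO were all 3 above 0.05 (0.446, 0.280 and 0.0759). Where FAK-R454 is compared, a fit with the sample number as a replicate block also drops sample 3 of the other line from the contrast, and its log2 fold changes equal those without that sample, so these changes cannot be told apart. With this replicate block, list genes in FAK-R454 over FAK KO were 4 higher and 2 lower. In FAK-WT over FAK-R454 the block gave 1 member higher, 10 list genes lower and a Bcar1 log2 fold change of -0.0174, and Pxn passed (adjusted p = 0.0364 from limma). It also made Bcar1 pass in β-catenin ΔGSK over FAK KO (adjusted p = 0.00393) and ended the call of Yes1 in KMF over FAK KO (adjusted p = 0.0506).

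With 1 FAK-R454 sample left, its spread was taken to be that of the other line. With 1 sample left out, members in FAK-R454 over FAK KO were 1 to 4 higher and 0 to 2 lower, and list genes 0 to 10 in either direction. In FAK-WT over FAK-R454, members were 0 to 1 higher and 0 to 4 lower, and list genes 0 to 3 and 0 to 9. Members lower in KMF over FAK KO were 3 to 5, and members in FAK-WT over KMF were 2 to 5 higher and 1 to 2 lower. List genes higher were 7 to 11 in β-catenin ΔGSK and 6 to 11 in KMF over FAK KO, and 8 to 14 were lower in FAK-WT over KMF. Uncalled log2 fold changes that crossed 0 ran, in FAK-WT over FAK KO, from -0.110 to 0.0618 for Ptk2b, -0.115 to 0.0150 for Src and -0.0270 to 0.104 for Pxn. They ran from -0.0461 to 0.0836 for Src in FAK-R454 over FAK KO, from -0.00457 to 0.130 for Src and -0.122 to 0.0108 for Pxn in β-catenin ΔGSK over FAK KO, from -0.161 to 0.0730 for Rb1cc1 in KMF over FAK KO, from -0.0174 to 0.0187 for Bcar1 in FAK-WT over FAK-R454 and from -0.114 to 0.0107 for Nedd9 in FAK-WT over KMF. The Ptk2b to Ptk2 ratio differed by -0.0170 to 0.0124 between FAK-WT and FAK-R454, and the Nedd9 to Bcar1 ratio by -0.00165 to 0.0475 between FAK-WT and KMF. The share of Src differed by -1.38 to 3.12 percentage points in FAK-R454, -1.45 to 3.05 in β-catenin ΔGSK and -0.0617 to 4.43 in KMF over FAK KO, and by -0.300 to 1.05 in FAK-WT over KMF. The share of Yes1 differed by -1.55 to 1.96 in KMF over FAK KO, and the summed Src, Yes1 and Fyn level by -0.745 to 0.862 FPKM in FAK-R454 over FAK KO. For the named list genes the same settings were added after seeing the data. Their sign turned, uncalled, in FAK-R454 over FAK KO for Efs with the block (0.000995) and Pitpnm3 with chromosomes centred (-0.0337), for Nck1 with chromosomes centred in KMF over FAK KO (-0.0141) and FAK-WT over FAK-R454 (0.0412), and for Pak1 with the block in FAK-WT over FAK-R454 (-0.131). With 1 sample left out these ran from -0.181 to 0.000995 for Efs, -0.0518 to 0.0794 for Pitpnm3, -0.0593 to 0.164 for Nck1 in KMF over FAK KO and -0.131 to 0.158 for Pak1. The cause of these shifts was not tested, other than the smaller number of samples. Depth limited Grb7, with 0 to 25 fragments a library.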
